A study of Rattus norvegicus with 12 samples.

Results

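The immediate early genes examined here are 10 genes of rat PAC1 cells, chosen by symbol as Fos, Fosb, Fosl1, Fosl2, Jun, Junb, Egr1, Egr2, Ier2 and Atf3. They are 10 of the 33294 genes in the count table, and all 10 were among the 18438 genes with enough counts to test. PAC1 is a smooth muscle line derived from rat pulmonary artery, and every library came from this 1 line grown in medium with serum. The control group of 3 libraries received a negative control siRNA, and 3 further groups of 3 libraries received siRNA against 1 of the splicing regulators RBPMS, RBFOX2 and QKI, at 90 pmol in each case. According to the labels all groups, control included, had a repeat transfection at 24 h and were collected 48 h after that, and the study describes longer intervals. The study made these knockdowns in PAC1 cells kept in their more differentiated state. It reports that the control cells of this experiment were less differentiated than those of its other sequencing experiment. No acute stimulus is named, so the values are levels in transfected cells without one.

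Immediate early genes are transcribed within minutes of a growth or stress signal, because the factors that switch them on, such as SRF with its ETS-family partners and CREB, are already present in the cell. Their transcripts are short-lived, and most encode transcription factors. FOS and JUN proteins pair through leucine zippers into the dimer called AP-1, EGR proteins bind GC-rich sites through zinc fingers, and ATF3 is a leucine zipper protein induced by stress. In vascular smooth muscle these genes are known for their response to serum, growth factors and injury.

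Motifs of such factors were searched for in the promoters. Of the 10 genes, 7 had an entry in the RefSeq promoter table of the rat build GRCr8, which spans 250 bases before to 50 after each start, and Fos, Jun and Atf3 had none. The CArG box bound by SRF (CC, then 6 bases that are A or T, then GG) was in 1.64% of 33469 promoters on either strand, and among the 7 it was in Egr1, at 2 places, and in Egr2. The CREB motif TGACGTCA was in 1.83% of promoters and, of the 7, in Ier2. The AP-1 motif TGANTCA was in 7.33% of promoters and in none of the 7. The EGR motif GCGNGGGCG was in 4.98% of promoters and, among the 7, in Fosl2. The TATA motif TATAAA was in 14.2% and was found in Junb, at −49 to −44 from the start. It was also in Fosb, but on the opposite strand and farther away, at −180 to −175. The ETS motif CCGGAA was in 15.0% and was found in Ier2 and Egr2. No searched motif was in the Fosl1 window. Egr2, Ier2 and Fosl1 are shown as examples of a CArG box, a CREB motif and no match, with the CArG box of Egr2 and the TGACGTCA of Ier2 in capitals. They lie at chr20:21054392-21054691 on the minus strand, chr19:40399123-40399422 on the plus strand and chr1:212183635-212183934 on the plus strand.
Egr2: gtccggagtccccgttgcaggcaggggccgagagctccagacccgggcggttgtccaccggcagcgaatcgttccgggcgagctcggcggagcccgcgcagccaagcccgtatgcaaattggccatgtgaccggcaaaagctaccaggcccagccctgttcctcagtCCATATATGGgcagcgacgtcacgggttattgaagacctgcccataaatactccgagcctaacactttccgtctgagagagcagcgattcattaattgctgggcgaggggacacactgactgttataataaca
Ier2: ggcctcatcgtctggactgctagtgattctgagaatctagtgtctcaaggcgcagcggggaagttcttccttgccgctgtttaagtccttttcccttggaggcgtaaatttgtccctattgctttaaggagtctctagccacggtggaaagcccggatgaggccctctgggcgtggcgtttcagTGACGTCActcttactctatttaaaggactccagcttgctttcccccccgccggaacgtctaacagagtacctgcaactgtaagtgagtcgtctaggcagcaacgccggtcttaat
Fosl1: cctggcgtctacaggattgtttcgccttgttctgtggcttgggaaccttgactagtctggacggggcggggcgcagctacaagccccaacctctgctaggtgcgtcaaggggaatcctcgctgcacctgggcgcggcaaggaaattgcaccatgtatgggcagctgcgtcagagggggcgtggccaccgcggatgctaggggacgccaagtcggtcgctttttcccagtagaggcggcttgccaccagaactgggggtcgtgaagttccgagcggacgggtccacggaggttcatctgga

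Library totals ranged from 111 to 152 M counts, and the lowest count of any of the 10 genes in any library was 217, for Egr2. RBPMS-KD 2 stood apart from its replicates, with a chi-square per degree of freedom of 57.8 and 45.6 over genes, against 4.64 to 21.5 for the other replicate pairs. The targeted transcripts fell in their own groups by 2.50 (Rbpms), 2.05 (Rbfox2) and 3.13 (Qk) on the log2 scale, and Rbpms also fell by 0.81 after RBFOX2 and by 0.49 after QKI knockdown. The mitochondrial share of counts lay between 2.58% and 3.36%. The summed level of 7 smooth muscle markers was 2089 to 2152 CPM (counts scaled to a common library total) in control, 1043 to 1154 in RBPMS knockdown, 804 to 902 in RBFOX2 knockdown and 1402 to 1488 in QKI knockdown. Acta2, Tagln and Myl9 made up most of this sum, and not all 7 were lower: Myh11 averaged 6.48 CPM in control and 8.23 (RBPMS), 13.4 (RBFOX2) and 7.38 (QKI) CPM after knockdown, Smtn 126 and, in RBFOX2 knockdown, 142 CPM, and Tagln 687 and, in QKI knockdown, 704 CPM. The sums of 5 epithelial markers were 30.0 to 31.9, 36.4 to 44.3, 72.0 to 74.0 and 37.2 to 40.8 CPM in the same order. These sums were mostly Krt8, while in QKI knockdown the low genes Cldn4 (0.365 to 5.63 CPM), Epcam (0.0588 to 0.368 CPM) and Cdh1 (0.0815 to 0.391 CPM) had means above control. Cldn4 was below control in the other knockdowns, at 0.0912 CPM in RBPMS and 0.108 CPM in RBFOX2 knockdown. In RBFOX2 knockdown the means of Epcam and Cdh1 were 0.0334 and 0.150 CPM, the first below and the second above control. The 5 endothelial markers summed to at most 10.8 CPM and the 5 leukocyte markers to at most 2.86 CPM in any library. The part of these shifts in the results below was not tested, and in bulk RNA fewer cells of a type and less RNA per cell cannot be told apart.

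Of the 10 genes, Fosb, Fosl1 and Fosl2 were higher than control, and Egr1 and Ier2 lower, in every knockdown, while Fos, Jun, Junb, Egr2 and Atf3 differed between knockdowns in direction or in call. A gene was called at an adjusted p under 0.05 by edgeR's quasi-likelihood test over all genes tested. After RBPMS knockdown 5 of the 10 rose and 4 fell, where 59.4% of all genes tested were called (30.4% higher and 29% lower). After RBFOX2 knockdown 4 rose and 3 fell, against 60.3% called in either direction (30.1% higher and 30.1% lower). After QKI knockdown 4 rose and 5 fell, against 66.9% called (32.9% higher and 34% lower). Calls were thus the usual outcome for a gene in these data, and the share called was higher still among the 10707 genes that averaged 5 CPM or more, at 75.7%, 74.8% and 80.3%. The libraries of knockdown and control did not overlap for 9, 8 and 9 of the 10 genes after RBPMS, RBFOX2 and QKI knockdown, and the same held for 61.7%, 68.6% and 72.3% of all genes tested. The 3 comparisons share the control libraries, so their directions are not independent. The share of all genes called in the same direction in every knockdown is not given here. The labels do not say that replicates came from separate cultures, while the study's methods state at least 3 biological replicates per condition. The p-values measure only the spread between these libraries.

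Changes over 2-fold were fewer. They comprised Fosb, Fosl1, Atf3 and Egr1 after RBPMS knockdown, Egr1 and Fos after RBFOX2 knockdown, and Fos after QKI knockdown, where 9.66%, 11.7% and 17.5% of all genes tested passed the same limit. Among genes averaging 5 CPM or more these background shares were 4.54%, 5.78% and 10.9%. Most of these genes lay close to the 2-fold limit, and the counts of 4, 2 and 1 moved when 1 library was left out. The count of 4 after RBPMS knockdown was 3 under 7 of 9 other settings of the analysis, since Fosl1 lay at the limit, and it was 3 without RBPMS-KD 2, where 5 genes still rose and 4 fell. Without control 3 they were 2 after RBPMS knockdown and 1 after RBFOX2 knockdown. The count after RBFOX2 knockdown was 3 without RBFOX2-KD 1 and 1 without RBFOX2-KD 3. The count after QKI knockdown was 0 without control 2, QKI-KD 1 or QKI-KD 2. The median log2 fold change of the 10 genes was 0.24, 0.22 and −0.13 in the 3 knockdowns, where that of all genes tested was 0.0085, 0.015 and 0.0070.

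**Figure D1:**
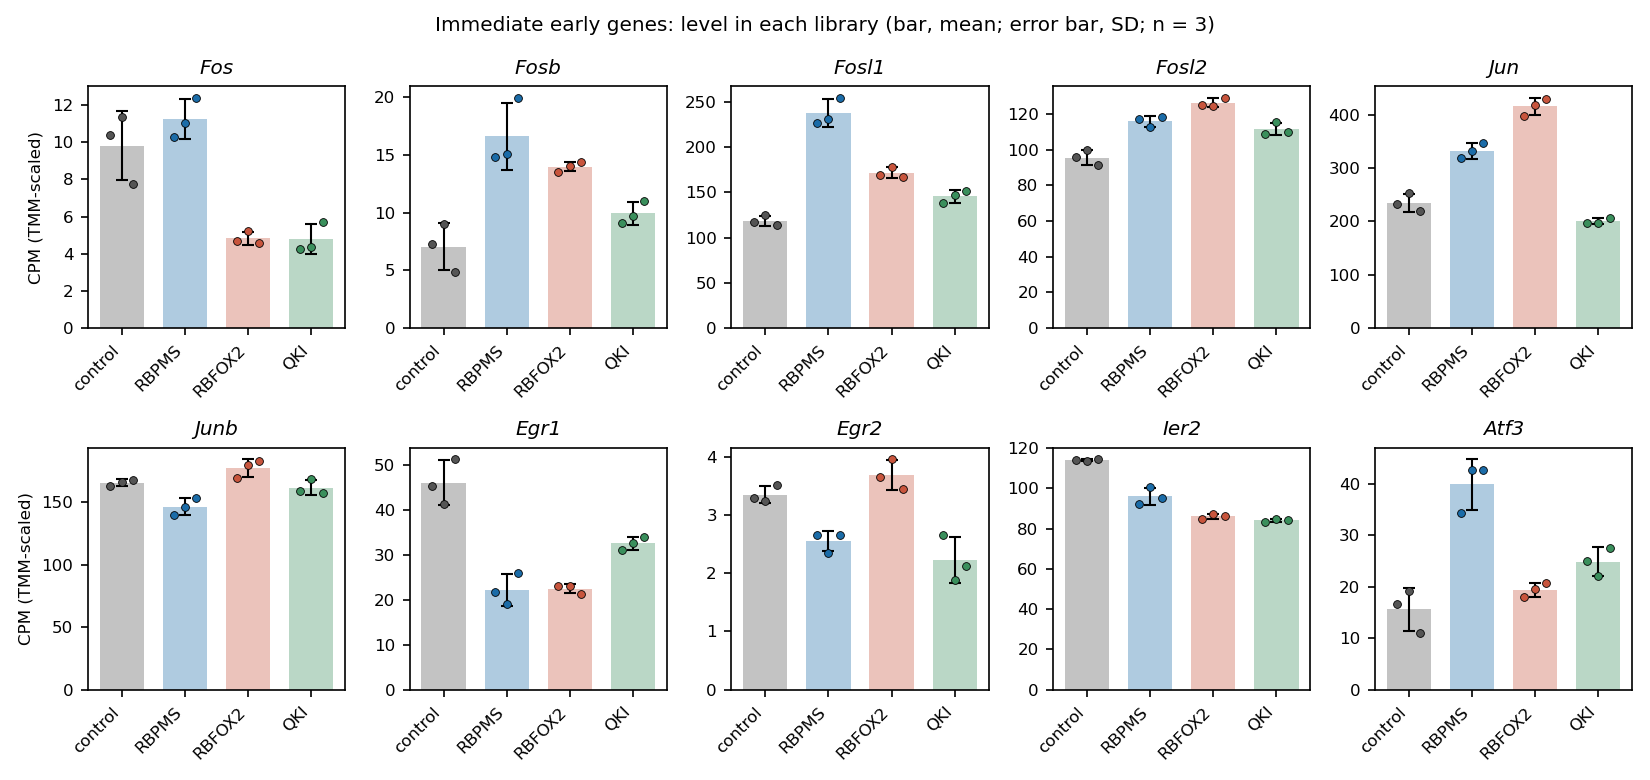
Level of each of the 10 immediate early genes in CPM (vertical axes, from 0, scaled separately for each gene) in the 3 libraries (points) of control and of RBPMS, RBFOX2 and QKI knockdown, with the mean (bar) and SD (error bar). Egr1 and Ier2 sit below control in all knockdowns and Fosb, Fosl1 and Fosl2 above it, while Jun is above control in RBPMS and RBFOX2 knockdown and below it in QKI knockdown.

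The 4 FOS-family genes did not move together. Fos encodes c-FOS, the classical partner of JUN. Its level in the 3 control libraries was 10.4, 11.4 and 7.74 CPM, and in RBPMS knockdown it was 10.3, 11.01 and 12.4 CPM. It was 4.69, 5.23 and 4.56 CPM in RBFOX2 knockdown and 4.24, 4.38 and 5.70 CPM in QKI knockdown. Every RBFOX2 and QKI library thus lay below every control library, whereas the RBPMS libraries overlapped with control. The fall was 1.03 on the log2 scale (SE 0.128, adjusted p = 2.29e-06) after RBFOX2 knockdown and 1.04 (SE 0.129, adjusted p = 1.56e-06) after QKI knockdown. After RBPMS knockdown the log2 fold change was 0.19 (SE 0.123, adjusted p = 0.193).

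Fosb, whose shortened splice form is known to build up with repeated stimulation, was higher in all knockdowns. Control libraries had 7.25, 8.997 and 4.90 CPM and RBPMS libraries 14.8, 15.1 and 19.98 CPM. RBFOX2 libraries had 13.6, 14.1 and 14.4 CPM and QKI libraries 9.07, 9.72 and 11.03 CPM. The lowest QKI library, at 9.07 CPM, was just above the highest control library, at 8.997 CPM, and all other knockdown libraries were also above control. The rises were 2.35-fold (log2 1.23, SE 0.154, adjusted p = 2.30e-06), 1.98-fold (log2 0.99, SE 0.154, adjusted p = 2.73e-05) and 1.41-fold (log2 0.49, SE 0.156, adjusted p = 0.0104) after RBPMS, RBFOX2 and QKI knockdown. The last call rested on single libraries: the log2 fold change was 0.28 without control 3 (adjusted p = 0.0521) and 0.41 without QKI-KD 3 (adjusted p = 0.0519). The counts are per gene and do not separate the splice forms.

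Fosl1 encodes FRA-1, a FOS relative without the C-terminal activation domain and a known AP-1 subunit of migrating cells. Its control libraries had 118, 125 and 113 CPM, and RBPMS libraries had 226, 231 and 255 CPM. RBFOX2 libraries had 169.5, 178 and 167 CPM and QKI libraries 138, 147 and 152 CPM. The 4 groups did not overlap with each other at any point, in the order control, QKI, RBFOX2 and RBPMS knockdown. The log2 fold changes were 1.00 (SE 0.0499, adjusted p = 2.45e-11) after RBPMS, 0.53 (SE 0.0496, adjusted p = 5.72e-08) after RBFOX2 and 0.29 (SE 0.0496, adjusted p = 4.93e-05) after QKI knockdown. The change after RBPMS knockdown stood at the 2-fold limit itself, with a range of 0.95 to 1.04 over the alternatives tried.

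Fosl2, which encodes the related FRA-2, changed less. Its mean was 95.6 ± 4.204 CPM (SD, n = 3) in control, 116 ± 3.07 in RBPMS, 126 ± 2.58 in RBFOX2 and 112 ± 3.46 in QKI knockdown. No knockdown library overlapped with control. The log2 fold changes were 0.28 (adjusted p = 6.87e-06), 0.40 (adjusted p = 7.75e-08) and 0.22 (adjusted p = 6.37e-05) in the same order.

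Jun was the only 1 of the 10 that rose in some knockdowns and fell in another. It encodes c-JUN, which can pair with itself as well as with FOS proteins. Control libraries had 233, 253 and 219 CPM and RBPMS libraries 318, 331 and 348 CPM. RBFOX2 libraries had 398, 419 and 430.2 CPM and QKI libraries 197, 197 and 206 CPM. All RBPMS and RBFOX2 libraries were above, and all QKI libraries below, every control library. The rise was 1.42-fold (log2 0.50, SE 0.0488, adjusted p = 1.11e-07) after RBPMS and 1.77-fold (log2 0.82, SE 0.0490, adjusted p = 1.73e-10) after RBFOX2 knockdown. After QKI knockdown Jun fell by 0.23 on the log2 scale (SE 0.0488, adjusted p = 4.77e-04). 

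Junb, whose product is a weaker activator than c-JUN on many sites, moved little. Its mean was 166 ± 2.75 CPM in control, 147 ± 7.09 in RBPMS, 177 ± 7.30 in RBFOX2 and 162 ± 5.93 in QKI knockdown. Its fall after RBPMS knockdown was 0.18 on the log2 scale (SE 0.0414, adjusted p = 0.00134). The RBFOX2 libraries were all above control, but the difference of 0.10 (SE 0.0413, adjusted p = 0.0514) missed the threshold, which it passed under 6 of 15 alternatives. The QKI libraries overlapped with control, and the log2 fold change was −0.04 (SE 0.0414, adjusted p = 0.456).

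**Figure D2:**
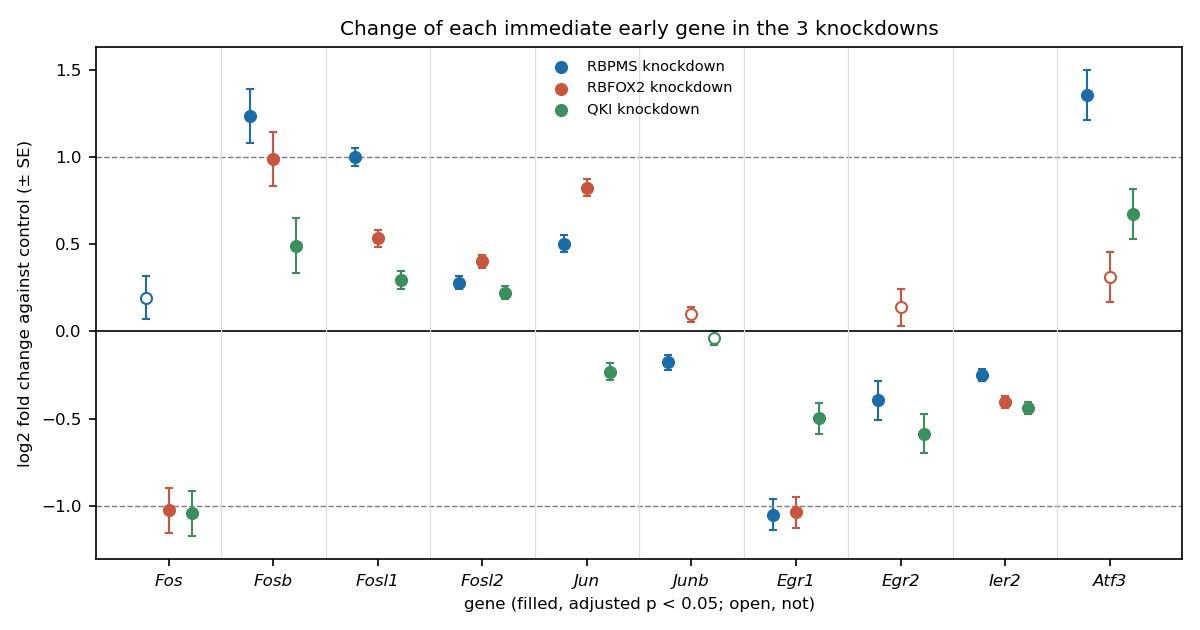
Log2 fold change against control (vertical axis, ± SE) of the 10 genes after RBPMS, RBFOX2 and QKI knockdown, filled where the adjusted p was under 0.05 and open elsewhere, with dashed lines at 2-fold. Fosb, Fosl1 and Fosl2 lie above 0 and Egr1 and Ier2 below 0 in every knockdown, and Fos is near −1 after RBFOX2 and QKI knockdown but at 0.19 after RBPMS knockdown.

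Egr1, a zinc finger factor that in vessel walls is known for activating growth factor and cytokine genes, fell in all knockdowns. Control libraries had 45.3, 41.3 and 51.2 CPM, and RBPMS libraries 21.8, 18.9 and 26.0 CPM. RBFOX2 libraries had 22.9, 23.0 and 21.2 CPM and QKI libraries 31.1, 32.6 and 34.0 CPM. No knockdown library reached the lowest control library, and the QKI libraries lay between control and the other knockdowns. The falls were 1.05 (SE 0.0904, adjusted p = 2.35e-08), 1.04 (SE 0.0897, adjusted p = 2.34e-08) and 0.50 (SE 0.0885, adjusted p = 8.80e-05) on the log2 scale after RBPMS, RBFOX2 and QKI knockdown.

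Egr2, best known from myelinating Schwann cells, had the lowest counts of the 10, so its values are the least finely resolved. Control libraries had 3.30, 3.25 and 3.51 CPM and RBPMS libraries 2.66, 2.35 and 2.66 CPM. RBFOX2 libraries had 3.65, 3.96 and 3.45 CPM and QKI libraries 2.66, 1.89 and 2.13 CPM. The RBPMS and QKI libraries were below control and the RBFOX2 libraries overlapped with it. Egr2 fell by 0.39 (SE 0.112, adjusted p = 0.00586) after RBPMS and by 0.59 (SE 0.113, adjusted p = 1.88e-04) after QKI knockdown on the log2 scale, and its log2 fold change after RBFOX2 knockdown was 0.14 (SE 0.108, adjusted p = 0.289).

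Ier2, which encodes a nuclear protein of the early growth response, had the lowest spread between libraries of the 10. Its mean was 114 ± 0.417 CPM in control, 96.1 ± 4.38 in RBPMS, 86.1 ± 1.31 in RBFOX2 and 84.1 ± 0.732 in QKI knockdown, with no overlap with control in any knockdown. It fell by 0.25 (adjusted p = 8.41e-06), 0.41 (adjusted p = 2.01e-08) and 0.44 (adjusted p = 4.53e-09) on the log2 scale.

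Atf3, a stress-induced leucine zipper factor that is also a target of the ATF4 pathway, had the largest rise of the 10. Control libraries had 16.7, 19.1 and 10.98 CPM and RBPMS libraries 34.2, 42.7 and 42.7 CPM. RBFOX2 libraries had 17.99, 19.5 and 20.7 CPM and QKI libraries 25.0, 22.03 and 27.6 CPM. All RBPMS and QKI libraries were above control, while 1 RBFOX2 library fell within the control range. Atf3 rose 2.56-fold (log2 1.35, SE 0.142, adjusted p = 2.71e-07) after RBPMS knockdown and 1.59-fold (log2 0.67, SE 0.142, adjusted p = 4.68e-04) after QKI knockdown. After RBFOX2 knockdown its log2 fold change was 0.31 (SE 0.143, adjusted p = 0.0691), and it was 0.49 without control 2 (adjusted p = 0.0081), 1 of 5 alternatives among 15 in which it passed.

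Tested directly, the knockdowns differed from each other in most of the 10 genes, as they did in most genes. Between RBFOX2 and RBPMS knockdown 8 of 10 were called, where 56.7% of genes tested were, and the numbers were 8 of 10 and 61% between QKI and RBPMS knockdown and 8 of 10 and 68.5% between QKI and RBFOX2 knockdown. Fos was lower in RBFOX2 than in RBPMS knockdown, by a log2 difference of −1.22 (adjusted p = 4.21e-07), and differed by −1.23 (adjusted p = 2.60e-07) between QKI and RBPMS knockdown. Jun differed most between QKI and RBFOX2 knockdown, by −1.05 (SE 0.0492, adjusted p = 4.07e-12). Atf3 was lower in RBFOX2 than in RBPMS knockdown by a log2 difference of −1.04 (adjusted p = 6.43e-06). These were the differences over 2-fold, which 7.52%, 12.2% and 18.4% of genes reached in the 3 comparisons.

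The order of the levels differed from gene to gene. From low to high, Fosl1 went control, QKI, RBFOX2, RBPMS knockdown with every neighbour different, and Jun went QKI knockdown, control, RBPMS knockdown, RBFOX2 knockdown, also with every neighbour different. Fos was lowest in QKI and RBFOX2 knockdown, which did not differ beyond their spread (log2 difference −0.02, adjusted p = 0.921), and higher in control and RBPMS knockdown. Egr1 was lowest in RBPMS and RBFOX2 knockdown, which did not differ beyond their spread (log2 difference 0.01, adjusted p = 0.909), then in QKI knockdown, and highest in control. Fosb was lowest in control, then QKI, then RBFOX2 and RBPMS knockdown, whose difference of −0.25 (RBFOX2 minus RBPMS) had an adjusted p of 0.167. Atf3 was lowest in control and RBFOX2 knockdown, then QKI and then RBPMS knockdown, and the step from RBFOX2 to QKI knockdown (log2 difference 0.36, adjusted p = 0.0311) was lost under 5 of 15 alternatives. Fosl2 was lowest in control, then in QKI and RBPMS knockdown (log2 difference −0.06, adjusted p = 0.209), and highest in RBFOX2 knockdown. Junb was lowest in RBPMS knockdown, and its neighbours among QKI knockdown, control and RBFOX2 knockdown did not pass. Egr2 was low in QKI and RBPMS knockdown (log2 difference −0.19, adjusted p = 0.165) and higher in control and RBFOX2 knockdown. Ier2 was lowest in QKI and RBFOX2 knockdown (log2 difference −0.03, adjusted p = 0.392), then RBPMS knockdown and highest in control.

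Several of the 10 genes varied more between libraries of 1 group than most genes did. The biological coefficient of variation, the spread between libraries of a group beyond counting error, had a median of 4.11% over the 10707 genes averaging 5 CPM or more. It was 13.0% for Fosb, above 99.9% of those genes, 12.03% for Atf3 (above 99.8%) and 10.6% for Fos (above 99.6%). Egr2, with a mean of 2.95 CPM, had 8.26%, and Egr1 had 7.65% (above 97.4%). Fosl1, Jun, Junb, Fosl2 and Ier2 were between 3.23% and 4.47%, near or below the median. Fosb, Atf3 and Fos thus had the widest spread of the 10. Control 3 was the lowest and control 2 the highest control library for Fos, Fosb, Fosl1, Fosl2, Jun and Atf3. Control 3 was the highest for Junb, Egr1, Egr2 and Ier2, and control 2 the lowest for Egr1, Egr2 and Ier2. Of 38 other immediate early genes, 25 were lowest in control 3 and 22 were highest in control 2, where 34.4% of genes averaging 5 CPM or more were lowest in control 3 and 36.8% highest in control 2.

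Related genes were counted over lists, which were drawn up with earlier results of these data known. A gene is named for a knockdown where it was among the 3 largest changes of its list. It may also have changed in the others. Among 38 other immediate early genes, 23 rose, 8 fell and 7 did not pass after RBPMS knockdown, against 10, 17 and 11 after RBFOX2 knockdown and 11, 19 and 8 after QKI knockdown. Of all genes tested, 30.4%, 30.1% and 32.9% rose and 29%, 30.1% and 34% fell in these comparisons. In either direction 59.4%, 60.3% and 66.9% were called, and 75.7%, 74.8% and 80.3% of those averaging 5 CPM or more. The median log2 fold changes of the 38 genes were 0.22, −0.11 and −0.15. Ptgs2, the inducible cyclooxygenase, went from 22.9 ± 5.80 CPM in control to 97.4 ± 8.73 CPM after RBPMS knockdown (log2 2.09, SE 0.141, adjusted p = 1.10e-09). Arc, a gene known from neurons, fell from 12.01 CPM in control to 3.13 CPM after RBPMS knockdown (log2 −1.94, adjusted p = 4.73e-11) and to 2.83 CPM after RBFOX2 knockdown (log2 −2.09, adjusted p = 1.26e-11). Ier3 rose after RBPMS knockdown from 60.3 to 160.2 CPM (log2 1.41, adjusted p = 5.07e-11). Hbegf, which encodes a ligand of the EGF receptor, rose in all knockdowns from 19.7 CPM in control. It was at 48.1 CPM after RBPMS (log2 1.29), 51.8 CPM after RBFOX2 (log2 1.39) and 49.3 CPM after QKI knockdown (log2 1.32). After QKI knockdown the nuclear receptor gene Nr4a2 fell from 15.7 to 3.41 CPM (log2 −2.20, adjusted p = 7.39e-13) and the kinase gene Sik1 rose from 2.54 to 7.59 CPM (log2 1.58). Sik1 also rose after RBPMS knockdown, to 5.58 CPM (log2 1.13). Socs3, a feedback inhibitor of cytokine signalling, rose from 11.5 to 31.7 CPM after RBFOX2 knockdown (log2 1.46) and to 21.8 CPM after RBPMS knockdown (log2 0.92).

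Of 16 genes that act before the immediate early genes, 5, 2 and 7 rose and 8, 10 and 6 fell after RBPMS, RBFOX2 and QKI knockdown, and the share called was near that of genes averaging 5 CPM or more (75.7%, 74.8% and 80.3%). Srf, which encodes the factor that binds the CArG box, fell from 98.0 ± 1.74 CPM in control to 33.8 ± 0.946 CPM after RBFOX2 knockdown (log2 −1.54, SE 0.0404, adjusted p = 4.24e-15) and to 51.6 ± 0.599 CPM after QKI knockdown (log2 −0.93, SE 0.0396, adjusted p = 1.17e-12). Mapk3, encoding the ERK1 kinase, rose from 77.9 CPM to 153, 156 and 130.3 CPM in the 3 knockdowns (log2 0.97, 1.00 and 0.74). Mapk14, encoding a p38 kinase, fell from 157 to 99.4 CPM after RBPMS knockdown (log2 −0.66). Elk3 rose after RBPMS knockdown (log2 0.49) and after QKI knockdown (log2 0.93, from 83.0 to 158 CPM), and Elk4 fell after RBFOX2 knockdown (log2 −0.59).

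Among 11 other tested leucine zipper genes, of the JUN, BATF, ATF, MAF and CREB families, 3, 3 and 2 rose and 4, 5 and 6 fell. Of all genes tested, 59.4%, 60.3% and 66.9% were called, with 30.4%, 30.1% and 32.9% higher and 29%, 30.1% and 34% lower. Crem fell in all knockdowns, by 0.35, 0.47 and 1.00 on the log2 scale. Jdp2 rose by 0.40 and Mafg by 0.37 on the log2 scale after RBPMS knockdown. Jund fell from 302 to 181 CPM after RBFOX2 knockdown (log2 −0.74), Atf2 fell from 59.4 to 27.4 CPM after RBFOX2 knockdown (log2 −1.12), and Atf7 fell from 58.1 to 21.9 CPM after QKI knockdown (log2 −1.41). Creb1, the factor of the TGACGTCA motif, fell from 39.0 to 17.0 CPM after QKI knockdown (log2 −1.20). The corepressors of EGR proteins, Nab1 and Nab2, fell in all knockdowns. Nab2 fell by 0.60, 0.55 and 0.42 and Nab1 by 0.31, 0.35 and 1.18 on the log2 scale after RBPMS, RBFOX2 and QKI knockdown.

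Known AP-1 or EGR targets split both ways. Of 19 tested (Mmp10, the other of the 20, was not), 8, 11 and 10 rose and 6, 5 and 8 fell, with medians of 0.097, 0.17 and 0.87 on the log2 scale, where 30.4%, 30.1% and 32.9% of all genes tested rose and 29%, 30.1% and 34% fell. Ccl2, a chemokine gene, went from 11.8 to 66.8 CPM after RBPMS knockdown (log2 2.49, SE 0.135, adjusted p = 6.80e-11). Cd44, a receptor for hyaluronan, rose after RBPMS knockdown (log2 1.62, from 230.1 to 705 CPM) and RBFOX2 knockdown (log2 1.45, to 628 CPM), and Hmox1, the gene of haem oxygenase, rose in the same knockdowns (log2 1.35 and 1.12). After QKI knockdown Spp1, encoding osteopontin, fell from 3725 to 614 CPM (log2 −2.60), the cyclin gene Ccnd1 from 1262 to 268 CPM (log2 −2.23) and the growth factor gene Pdgfa from 106 to 28.7 CPM (log2 −1.88). In that comparison 14 of the 19 targets changed over 2-fold, 9 up and 5 down, against 17.5% of all genes tested and 10.9% of those averaging 5 CPM or more.

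**Figure D3:**
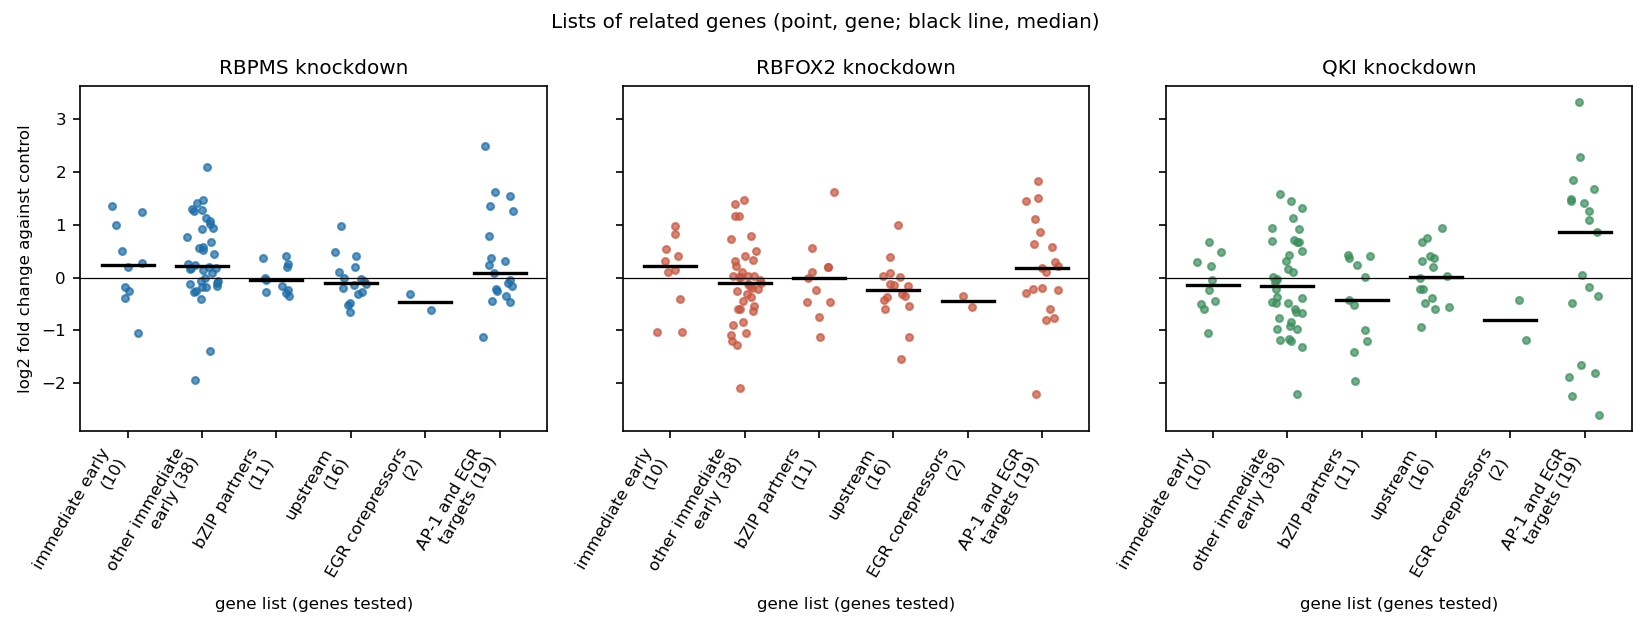
Log2 fold change against control (vertical axis) of the genes tested in 6 lists (points) after RBPMS, RBFOX2 and QKI knockdown, with the median of each list as a black line. The median of the 38 other immediate early genes is 0.22 after RBPMS knockdown and −0.11 and −0.15 after RBFOX2 and QKI knockdown, and the 2 EGR corepressors lie below 0 in all panels.

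Genes with the pattern nearest to each member were found among 10038 genes over the 12 libraries. These averaged 5 CPM or more, and genes with placeholder symbols (LOC, RGD or MGC and a number) were left out. Nearness was the root mean square difference of log2 CPM after each gene was centred on its own mean. The nearest to Fos were Ptgs1 (0.131), Adamts8 (0.142) and Trim68 (0.151). Ptgs1 had 32.4 CPM in control, 41.2 in RBPMS, 14.5 in RBFOX2 and 15.8 in QKI knockdown. The nearest to Jun were Mzt1 (0.0776), Hebp1 (0.0833) and Mapkapk3 (0.0886), and those to Egr1 were Lrp4 (0.102), Dennd2c (0.117) and Mllt6 (0.124). The nearest to Atf3 were Ifi27l2b (0.160), Slc3a2 (0.166) and Trib3 (0.172). Trib3 had 21.2 CPM in control, 64.3 in RBPMS, 24.1 in RBFOX2 and 32.5 in QKI knockdown. The nearest to Fosb were Ahrr (0.161), Cxcl10 (0.167) and Xdh (0.223). No other member was among these, and Egr2, with a mean of 2.95 CPM, was not compared. Of the members compared, the nearest to Fosb and Atf3 was Fosl1 (0.246 and 0.309). To Fos and Egr1 it was Ier2 (0.473 and 0.375), and to Jun it was Fosl2 (0.328).

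**Figure D4:**
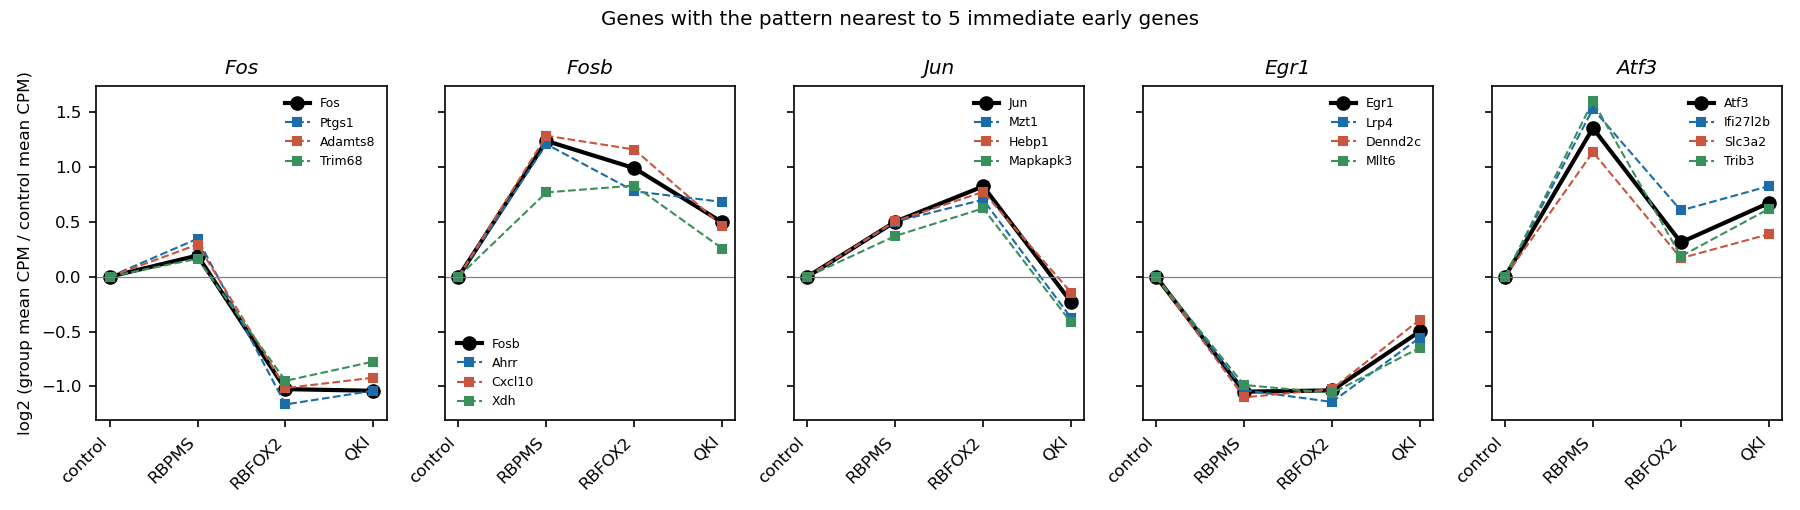
Group mean CPM relative to control on a log2 scale (vertical axis) in control and the 3 knockdowns for Fos, Fosb, Jun, Egr1 and Atf3 (black circles) and the 3 genes nearest to each (coloured squares). Fos and its nearest genes sit near −1 after RBFOX2 and QKI knockdown, and Egr1 and its nearest genes near −1 after RBPMS and RBFOX2 knockdown.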

How the data were processed

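The authors deposited a table of counts per gene for 12 libraries and a second table with a normalised signal, which was used only as an alternative here. Per the study's methods, reads were subsampled to an equal number per library, aligned with STAR to mRatBN7.2 and counted with featureCounts. A noise filter and quantile normalisation by the authors followed. The deposited totals, at 111 to 152 M counts, are unequal, so the counts used here do not show that equal depth, which was not resolved. The submitters' processing notes name STAR 2.5.2a and the study's methods a later release, which was not resolved. Whether counting used strand is not given in the sources used here. Of the count values from 1 to 19, 68.1% were even against 50.9% above 1000, so small counts are not counts of independent fragments. The near even split above 1000 does not show that larger counts are, and the library totals exceed the read depths given in the study's methods. Whether larger counts, those of the immediate early genes included, are counts of independent fragments was not tested. The tables were used as deposited.

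Groups and replicate numbers came from the sample titles. Genes kept by filterByExpr were fitted with edgeR 4.0.16 in R 4.3.3 (TMM scaling, glmQLFit and glmQLFTest, two-sided, all 12 libraries in 1 fit with 1 coefficient per group). Benjamini-Hochberg adjustment ran over 18438 genes, and a change over 2-fold also needed an absolute log2 fold change above 1. The SE is the absolute log2 fold change divided by the square root of F. CPM are scaled by TMM, and errors are SD of 3 libraries. With 3 against 3, an exact permutation test cannot give a p below 0.1. The code was tested on simulated data. Library totals were 111 to 152 M counts, and no pair of replicates was a duplicate.

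The members and lists were chosen with earlier results of these data known. Named in the text are the members, the siRNA targets, the 3 genes of each list with the largest absolute change in each knockdown among those called and averaging 5 CPM or more, and the 3 genes nearest to each member that averages 5 CPM or more and whose group means span at least 1 on the log2 scale. A gene that this rule names in 1 list is not reported here. Alternatives were DESeq2 1.42.0, scaling by RLE size factors or library totals, halved counts, other filters, pairwise fits of 6 libraries, a replicate block, limma 3.58.1 on the normalised signal with a pseudocount of 1, and leaving out each library. Sequences came from RefSeq (GRCr8), and no coordinates were moved between builds.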

Additional observations from a re-analysis of the deposited data

How the results depend on the processing

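Over 60 comparisons of the 10 genes and 15 alternatives each, 859 of 900 values kept direction and call, 14 lost the call, 14 gained it and 13 changed sign, none of these with a call under the alternative. Sign changes were limited to 4 small differences. Junb in QKI knockdown against control was 0.049 with library totals and 0.0056 with the quantile-normalised signal, and Fosl2 between QKI and RBPMS knockdown was 0.073 and 0.0047. Fos between QKI and RBFOX2 knockdown was 0.015 and 0.11, and leaving out 1 library gave −0.16 to 0.073. Egr1 between RBFOX2 and RBPMS knockdown ran from −0.092 to 0.14 when 1 library was left out. Scaling by library totals moved the median of all genes between QKI and RBPMS knockdown from −0.010 to 0.12.

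The numbers of genes over 2-fold moved most. After RBPMS knockdown 3 of the 10 genes passed in place of 4 with RLE size factors, library totals, no filter, the 200-count filter, the replicate block, DESeq2 and the quantile-normalised signal, and after RBFOX2 knockdown 3 passed in place of 2 with the 200-count filter and the quantile-normalised signal. With library totals 1 gene passed after RBFOX2 knockdown, 0 after QKI knockdown and 1 between RBFOX2 and RBPMS knockdown, and with the quantile-normalised signal 0 passed after QKI knockdown. Leaving out 1 library gave 2 to 4 after RBPMS knockdown, 1 to 3 after RBFOX2 knockdown, 0 to 1 after QKI knockdown, and 1 to 2 between RBFOX2 and RBPMS knockdown (1 without RBFOX2-KD 1, RBPMS-KD 2 or RBPMS-KD 3). The number higher in QKI than RBFOX2 knockdown was 1 with DESeq2 and 1 to 2 when 1 library was left out (1 without RBFOX2-KD 1, RBFOX2-KD 2, QKI-KD 1 or QKI-KD 3). Keeping only genes with a mean of at least 200 counts left 692, 840 and 1484 genes over 2-fold of all tested against control, and 435, 929 and 1515 in the other comparisons, against 1781, 2156, 3231, 1386, 2248 and 3389 with the usual filter, because fewer genes were tested.

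Against control, calls changed for Fosb in QKI knockdown, Atf3 in RBFOX2 knockdown (called with library totals, no filter, 6 libraries, the normalised signal or without control 2, 0.30 to 0.49) and Junb in RBFOX2 knockdown (called with library totals, the higher filter, the replicate block, 6 libraries, the normalised signal or without RBFOX2-KD 1, 0.10 to 0.15). The replicate numbers did not pair the libraries, with correlations of −0.34 to 0.25 over 18 same-number pairs and 3 of 12 libraries closest to their own number. With the replicate block Junb passed in RBFOX2 knockdown (0.097, adjusted p = 0.0343, edgeR), which made 5 genes higher, and apart from the count over 2-fold after RBPMS knockdown the other counts of members stayed the same. The cause of these shifts was not tested. Depth limits Egr2 most, which had as few as 217 counts in a library, and counting adds to its error.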

Other observations

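The balance within families was examined after the values were seen. The ratio of Fosb to Fos in CPM was 0.708 ± 0.0801 (SD, n = 3) in control, 1.47 ± 0.124 in RBPMS, 2.91 ± 0.230 in RBFOX2 and 2.10 ± 0.147 in QKI knockdown. No knockdown library overlapped with control. The ratio of Jun to Junb was 1.42 ± 0.111 in control, 2.27 ± 0.00858 in RBPMS, 2.34 ± 0.0114 in RBFOX2 and 1.24 ± 0.0704 in QKI knockdown. The ratio of Egr1 to Egr2 was 13.7 ± 0.948 in control, 8.67 ± 0.966 in RBPMS, 6.09 ± 0.245 in RBFOX2 and 15.0 ± 2.90 in QKI knockdown. Exact two-sided permutation tests against control gave p = 0.1, the smallest that 3 against 3 allows, for 7 of the 9 ratios and knockdowns (0.129 after Benjamini-Hochberg adjustment over 9), p = 0.2 for Jun to Junb in QKI knockdown and p = 0.5 for Egr1 to Egr2 in QKI knockdown. These ratios of CPM carry the unequal lengths of the transcripts, so only their differences between groups can be read.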
